A study of Rattus norvegicus with 12 samples.

Results

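Hepatic drug and organic ion transporters were taken as all probe sets annotated to exactly 1 gene symbol that starts with Slco, Slc22a, Slc15a, Slc47a, Abca, Abcb, Abcc, Abcd or Abcg. The rule found 50 of the 10411 named genes on the array, read by 64 of its 15866 probe sets. The Slco symbols gave 19 probe sets, Slc22a 15, Slc15a 4, Abca 2, Abcb 6, Abcc 10, Abcd 2 and Abcg 6. No probe set carried a single Slc47a symbol. Livers were taken 6 h after dosing from males of the inbred Brown Norway strain that weighed 150 to 170 g, and each was read on its own array. A single oral gavage held D-penicillamine in 1 mL of tap water (150 mg/kg, n = 8), or water as vehicle (n = 4). D-penicillamine, a drug with a thiol group, binds copper, and the title of the series names idiosyncratic reactions to it, those seen in some individuals only. The labels give neither an age nor the hour of dosing, nor which rats shared a cage.

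Hepatocytes clear drugs and endogenous organic ions from blood to bile with carriers at both of their faces. Carriers of the Slco and Slc22a families take up bile salts, hormone conjugates, drugs and cations from sinusoidal blood. ATP-driven pumps of the Abcb, Abcc and Abcg families then export bile salts, conjugates, phospholipid and sterol across the canalicular membrane, or return conjugates to blood. In rodents, many of these genes are under the control of nuclear receptors for bile acids and xenobiotics, and several uptake carriers and canalicular pumps fall in inflammation or cholestasis.

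The deposited values were on the log2 scale after RMA, a method that corrects, quantile normalizes and summarises probe signals, so a difference of 1 is a 2-fold difference. The values do not carry a detection call, and probe sets differ in affinity, so levels were compared between rats and not between genes. Of the 64 transporter probe sets, 30 lay above the median level of all probe sets and 34 below it. Of the genes that mark these transporters, Abcb11 and Abcc2 lay above the array medians on all arrays (9.42 to 10.71) and Abcc3 below them (5.00 to 5.31), which does not order their transcripts. Members known from testis, brain or intestine, such as Slco6b1, Slco1c1 and Slc15a1, also came under the rule and lay between 4.04 and 4.82. The defining markers of hepatocytes were bright on every array, with a mean over 5 genes of 13.61 to 13.81 in D-penicillamine rats and 13.67 to 13.78 in vehicle rats. In whole liver, fewer cells of a type and less RNA per cell cannot be told apart.

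A pair of arrays stood apart from the others before any comparison. D-penicillamine rat 4 had the largest root mean square distance from its group mean over all probe sets (0.195, against 0.104 to 0.147 in the other treated rats). Vehicle rat 3 had a 3' minus 5' signal of the Gapdh and beta-actin controls of 1.185, where the 11 other rats lay at 0.43 to 0.605. This control difference grows when RNA is degraded or incompletely labelled. The 8 treated arrays followed the 4 vehicle arrays on the scanner, so scan order cannot be told apart from treatment. Leaving out vehicle rat 3 turned the sign of the difference between the groups for 7 of the 64 transporter probe sets and moved it by over 1.5 times without a turn for 32. Leaving out D-penicillamine rat 4 did so for 8 and 21. Most of these differences were close to 0, and for the larger ones the value without the rat is given. The counts have no share over all probe sets beside them, so they do not set transporters apart from other genes.

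At 6 h, the group means of the transporters were close to each other. None of the 64 probe sets passed an adjusted p of 0.05 in the limma fit (smallest adjusted p = 0.807), as was the case for 0% of all 15866 probe sets. At an unadjusted p under 0.05 stood 2 transporter probe sets (6.16% of all), 1 of Slc22a23 higher (2.68% of all) and 1 of Abcc9 lower (3.48% of all). An absolute difference over 0.2 was seen for 3 transporter probe sets (3.33% of all). No transporter had groups that did not overlap, against 0.195% of all probe sets higher and 0.378% lower. The estimate was higher after D-penicillamine for 29 and lower for 35 (48.5% and 50.8% of all probe sets). The median difference, D-penicillamine minus vehicle, was -0.015 over the transporters and -0.0025 over all probe sets, and the median absolute difference was 0.052 and 0.048.

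The 95% intervals of 62 of the 64 probe sets lay within 1.5-fold up or down (98.6% of all), and those of all 64 within 2-fold (99.7% of all). Each interval is for 1 probe set on its own, and does not cover scan order or the quality of single arrays, so a change is not excluded. The exceptions at 1.5-fold were 1 probe set of Slco1a4 and 1 of Slc22a23. For probe sets with little signal such an interval describes the signal and may not bound the transcript.

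**Figure D1:**
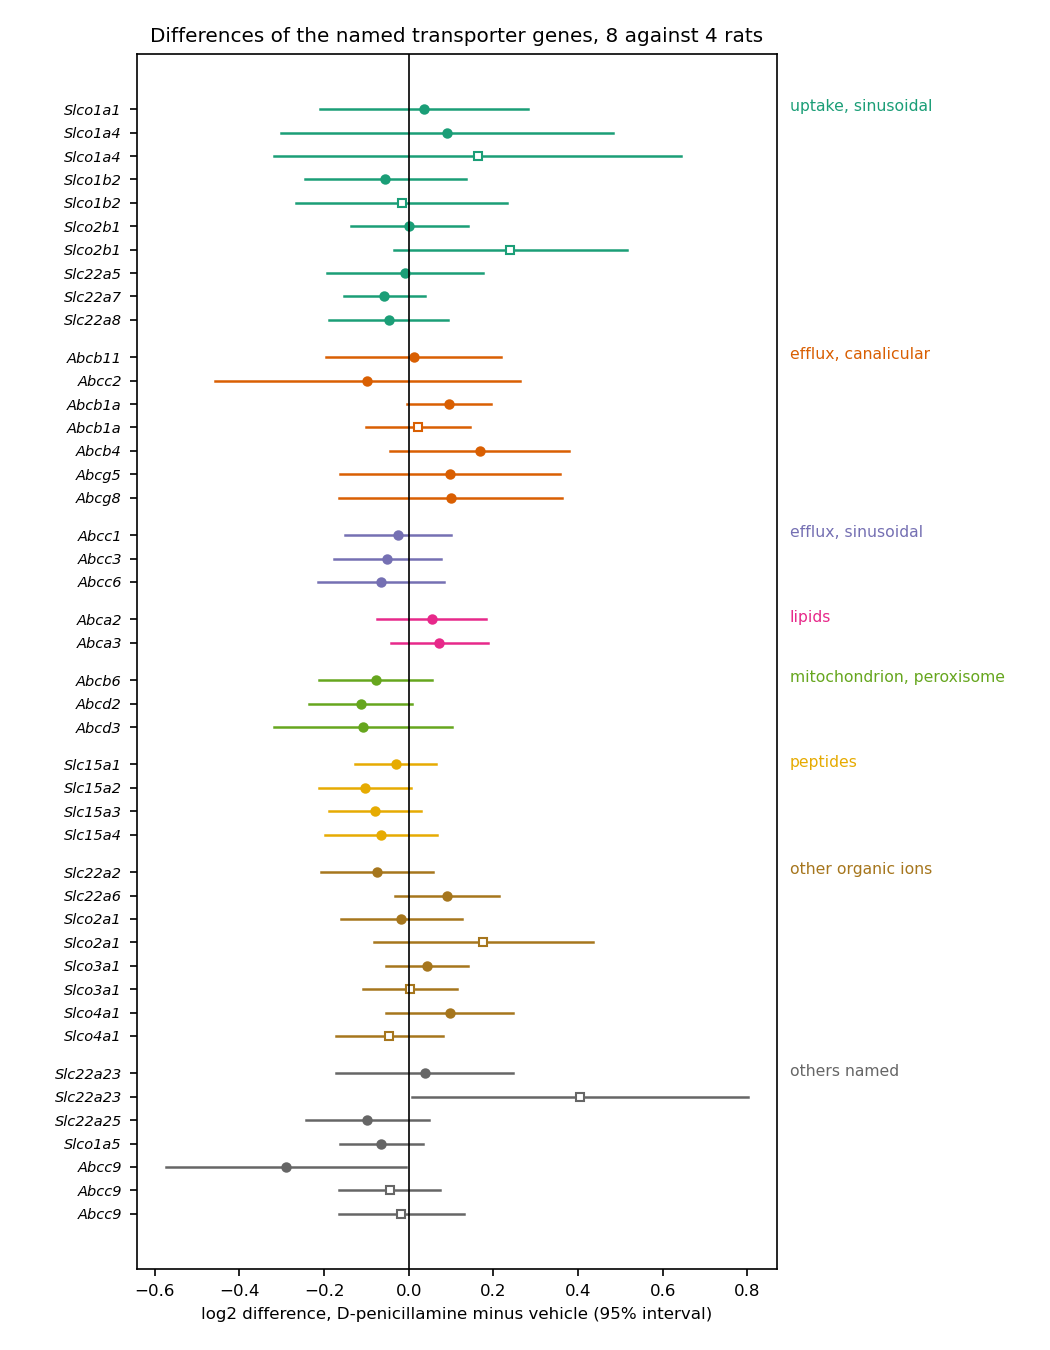
Log2 difference of each named transporter gene (D-penicillamine minus vehicle) with its 95% interval from the limma fit (8 against 4 rats). Filled circles are the probe set with the highest mean of each gene and open squares its other probe sets. All intervals but those of Slc22a23 (open square) and Abcc9 (filled circle) include 0.

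Carriers of the sinusoidal membrane that bring organic anions into the hepatocyte were followed first. Slco1a4, a carrier of bile salts, steroid conjugates and cardiac glycosides, had 9.97 at the lowest, a median of 10.96 and 11.27 at the highest in D-penicillamine rats, against 10.80, 10.60, 11.00 and 10.86 in vehicle rats. On its other probe set the treated rats ran from 7.85 over a median of 9.05 to 9.54, against 8.90, 8.64, 8.69 and 9.10 in vehicle rats. Rat 4 alone held the low end of both probe sets, and the other 7 treated rats lay at or above 10.82 and 8.90. The difference was 0.090 (SE 0.18) and 0.16 (SE 0.23), and without D-penicillamine rat 4 it was 0.22 and 0.33, with unadjusted p = 0.0347 and 0.0151 in limma and no adjusted p of any transporter below 0.701. Without that rat and vehicle rat 3 it was 0.29 and 0.28.

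Slco1a1, a related carrier of bile salts and sulfate conjugates in male rat liver, ranged from 8.68 over a median of 9.18 to 9.36 in D-penicillamine rats, against 9.05, 9.25, 8.82 and 9.31 in vehicle rats. The lowest values in the groups were those of D-penicillamine rat 4 and vehicle rat 3. The difference was 0.036 (SE 0.12), with 0.10 without D-penicillamine rat 4 and -0.060 without vehicle rat 3, so its sign rests on these rats. Slco1b2, the rodent counterpart of the human hepatocyte-specific OATP1B carriers, ranged from 10.04 over 10.45 to 10.58 in D-penicillamine rats, against 10.41, 10.52, 10.40 and 10.46 in vehicle rats. The treated rats spread to both sides of the vehicle range, with rats 4 and 5 lowest at 10.04 and 10.19, and the difference was -0.055 (SE 0.089). On its other probe set D-penicillamine rat 4 and vehicle rat 3 shared the lowest value of 9.98. The difference there was -0.016 (SE 0.12), with 0.038 without D-penicillamine rat 4 and -0.15 without vehicle rat 3.

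Slco2b1, a further uptake carrier of sulfated steroids, differed by 0.0013 (SE 0.065) on 1 probe set and by 0.24 (SE 0.13) on the other. On the second, D-penicillamine rats ranged from 8.20 over a median of 8.50 to 8.77, against 8.47, 8.44, 7.74 and 8.46 in vehicle rats. The low vehicle value was that of rat 3, and without it the difference was 0.061. Slc22a7 (Oat2) and Slc22a8 (Oat3), exchangers of organic anions, varied little. Slc22a7 was at 10.31 to 10.49 in D-penicillamine rats and 10.40 to 10.54 in vehicle rats, with a difference of -0.058 (SE 0.045, interval -0.15 to 0.038). Slc22a8 differed by -0.048 (SE 0.066). Slc22a5, the carnitine transporter Octn2, lay at 6.60 to 6.72 in 7 treated rats and 6.13 in rat 4, against 6.56, 6.60, 6.59 and 6.61 in vehicle rats. The group difference was -0.0088 (SE 0.086), and rat 4 lay below all 11 other rats.

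**Figure D2:**
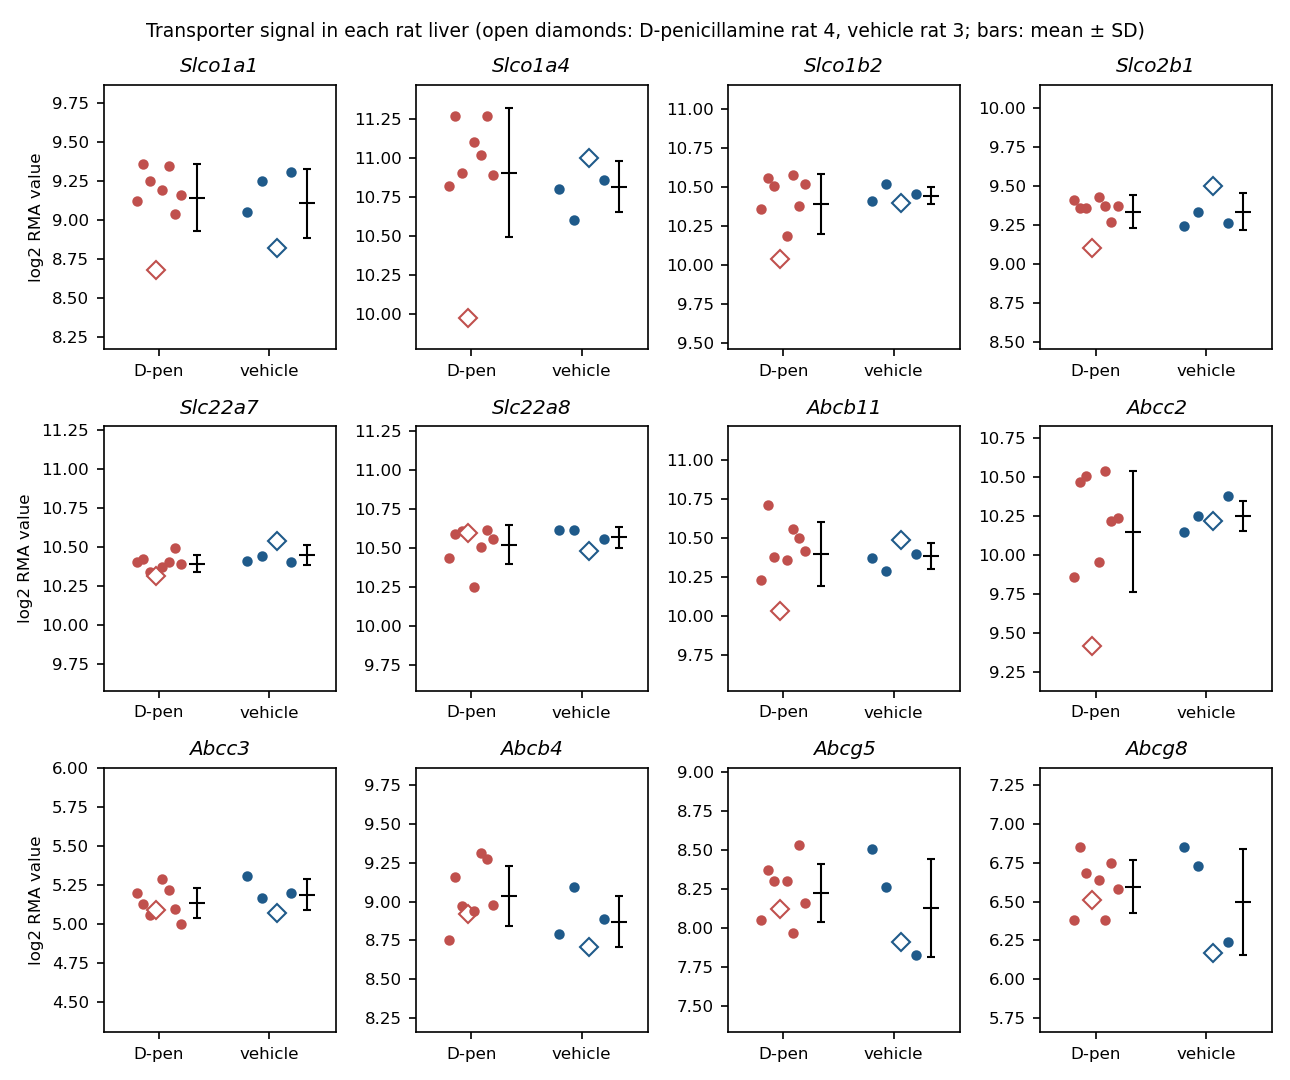
Log2 RMA value of 12 transporter genes in each liver, with D-penicillamine rats (n = 8) left of vehicle rats (n = 4) and the mean ± SD beside each group; all panels span the same number of log2 units. Open diamonds are D-penicillamine rat 4 and vehicle rat 3. D-penicillamine rat 4 is the lowest of all 12 rats for Slco1a1, Slco1a4, Slco1b2, Slco2b1, Slc22a7, Abcb11 and Abcc2.

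The canalicular pumps also had group means close to each other. Abcb11, the bile salt export pump, had values of 10.03 to 10.71 with a median of 10.40 in D-penicillamine rats, against 10.37, 10.29, 10.49 and 10.40 in vehicle rats. The difference was 0.011 (SE 0.096, interval -0.19 to 0.22). Abcc2 (Mrp2), which exports glucuronide and glutathione conjugates and bilirubin, had 9.42 at the lowest, a median of 10.23 and 10.54 at the highest in D-penicillamine rats, against 10.15, 10.25, 10.22 and 10.38 in vehicle rats. Treated rats 1, 4 and 5 lay below all vehicle rats at 9.86, 9.42 and 9.96, and treated rats 2, 3 and 6 lay above all of them. The difference was -0.098 (SE 0.17), and without D-penicillamine rat 4 it was 0.0071.

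Abcb4 (Mdr2), the flippase that moves phosphatidylcholine into bile, ranged from 8.75 over 8.98 to 9.31 in D-penicillamine rats, against 8.79, 9.09, 8.71 and 8.89 in vehicle rats. Its difference was 0.17 (SE 0.099, adjusted p = 0.831 in limma), and 7 of 8 treated rats lay above the vehicle mean. Abcb1a, a P-glycoprotein gene, differed by 0.095 (SE 0.047) and 0.023 (SE 0.058) on its probe sets. All 8 treated rats lay above the vehicle mean on the first, at 4.69 to 4.86 against 4.63 to 4.78 in vehicle rats, a signal far below the array medians. These values are uncertain, since transcripts of the near-identical copy Abcb1b may add to them, and a further probe set is annotated to both genes.

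Abcg5 and Abcg8 encode the subunits of a sterol pump that exports cholesterol and plant sterols into bile. Abcg5 was at 7.97 to 8.53 in D-penicillamine rats (median 8.23), against 8.51, 8.26, 7.91 and 7.83 in vehicle rats. Abcg8 was at 6.38 to 6.85 in D-penicillamine rats (median 6.61), against 6.85, 6.73, 6.17 and 6.24 in vehicle rats. For both genes vehicle rats 1 and 2 lay high and vehicle rats 3 and 4 low. All treated rats lay above vehicle rats 3 and 4, and some reached the values of vehicle rats 1 and 2. The differences were 0.098 (SE 0.12) and 0.099 (SE 0.12). On leaving out each rat, that of Abcg5 lay between -0.0017 (without vehicle rat 4) and 0.23 (without vehicle rat 1). That of Abcg8 lay between -0.010 (without vehicle rat 3) and 0.22 (without vehicle rat 1).

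The signals of both pump genes rose and fell together from rat to rat. Over the 12 rats Pearson's r was 0.942 and Spearman's rho 0.946 (p = 2e-05 for each in a permutation test with 100000 resamples, the smallest these can give, and adjusted p = 0.00034 over 17 pairs). Without the 2 rats farthest from the median of Abcg5, vehicle rat 4 and D-penicillamine rat 7, r was 0.958, and among the 8 treated rats alone it was 0.908. The pair was added to the family of same-gene probe set pairs for its known shared product, and what else the arrays share was not removed. The genes lie head to head, and RefSeq places their starts on opposite strands of GRCr8 with 205 bases between them. That stretch is shown since it lies upstream of both genes, at chr6:15717731-15717935 on the plus strand, which reads towards Abcg5, with capitals for the TATAAA found there.
Abcg8 to Abcg5: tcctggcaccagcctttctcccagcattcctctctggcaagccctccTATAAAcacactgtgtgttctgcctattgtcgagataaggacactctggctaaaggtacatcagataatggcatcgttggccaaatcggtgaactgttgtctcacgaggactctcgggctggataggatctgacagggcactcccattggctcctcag

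**Figure D3:**
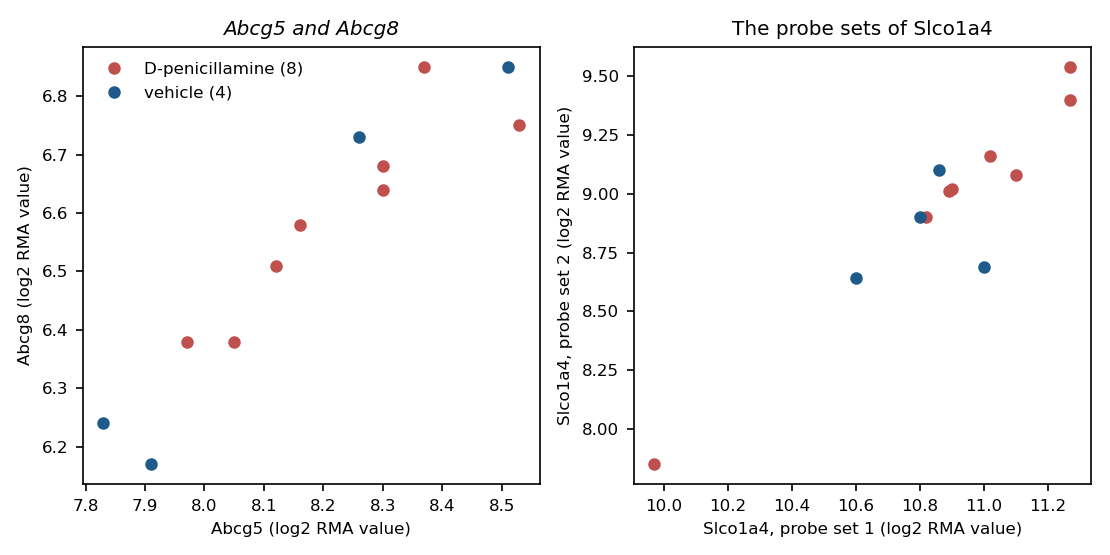
Left, the log2 RMA values of Abcg8 against those of Abcg5, and right, the values of the probe sets of Slco1a4 against each other, 1 point per rat. Points run along a line in both panels (r = 0.942 and 0.94), and D-penicillamine rat 4 is the lone point at the lower left on the right, at 9.97 and 7.85.

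Probe sets of 1 gene tracked each other across rats in few cases. In the same family of 17 pairs, 16 were pairs of probe sets of 1 gene, and their Pearson's r ran from -0.281 to 0.94. Only the pair of Slco1a4 passed (r = 0.94, p = 0.00016, adjusted p = 0.00136 in the permutation test; rho = 0.828, adjusted p = 0.0114). Without D-penicillamine rats 4 and 2, the farthest from its median, r was 0.752. The pair of Slco1b2 had r = 0.66 (adjusted p = 0.212 by permutation), or 0.355 without D-penicillamine rats 4 and 5. Of the 12 genes with several probe sets, 8 had the same sign of difference on all and 4, Abcc5, Abcg1, Slco2a1 and Slco4a1, had opposite signs.

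Pumps that return conjugates from hepatocytes to blood gave small negative estimates. Abcc3 (Mrp3), which carries glucuronides and rises in cholestatic rat liver, was at 5.00 to 5.29 in D-penicillamine rats (median 5.12), against 5.31, 5.17, 5.07 and 5.20 in vehicle rats. Its difference was -0.051 (SE 0.059, interval -0.18 to 0.075). Abcc1 (Mrp1), a pump of glutathione conjugates, differed by -0.026 (SE 0.059), and Abcc6, an ATP-release transporter abundant in liver, by -0.066 (SE 0.070), or by -0.0071 without vehicle rat 3. The groups overlapped for all 3 genes.

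Members of intracellular membranes and of lipid transport differed as little. Abca2 and Abca3, lipid transporters of lysosomes and related organelles, differed by 0.054 (SE 0.061) and 0.073 (SE 0.054), the second with 8 of 8 treated rats above the vehicle mean. Abcb6, a porphyrin-linked transporter, differed by -0.078 (SE 0.062). The peroxisomal fatty acid transporters Abcd2 and Abcd3 differed by -0.11 (SE 0.057) and -0.11 (SE 0.098), and vehicle rat 3 was high for Abcd3 at 10.07 where the other vehicle rats lay at 9.52 to 9.64. Without that rat Abcd3 was at 0.013.

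The 4 peptide transporters, Slc15a1 to Slc15a4, all had negative estimates, between -0.10 and -0.031. For Slc15a2, a proton-coupled carrier of small peptides and beta-lactams known from kidney, D-penicillamine rats ran from 4.16 to 4.42 and vehicle rats from 4.34 to 4.47, with an adjusted p of 0.807 in limma. Slc15a3 and Slc15a4, carriers of the endolysosome in immune cells, differed by -0.080 (SE 0.051) and -0.065 (SE 0.062). Only Slc15a4 lay above the median level of the array.

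Carriers known mainly from other organs or other cells included the members with the smallest p. Slc22a23, a family member with no settled substrate, differed by 0.40 (SE 0.19, adjusted p = 0.807 in limma) on 1 probe set. That probe set had 5.35 at the lowest, a median of 5.77 and 6.23 at the highest in D-penicillamine rats, against 5.50, 5.66, 4.64 and 5.63 in vehicle rats. The value of 4.64 was that of vehicle rat 3, without which the difference was 0.16, and the other, brighter probe set differed by 0.038 (SE 0.098). Abcc9, the sulfonylurea receptor subunit of potassium channels in vascular muscle, differed by -0.29 (SE 0.13, adjusted p = 0.807 in limma) on 1 probe set and by -0.045 and -0.018 on the others. On the first, D-penicillamine rats ran from 4.82 over 5.53 to 5.75, against 5.74, 5.64, 5.88 and 5.71 in vehicle rats. D-penicillamine rat 4 was the lowest again, and without it the difference was -0.20 and stayed past the unadjusted threshold of 0.05. Without vehicle rat 3 it was -0.24, and without both rats -0.15, and neither value passed that threshold.

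Slco2a1, the prostaglandin transporter, differed by -0.018 (SE 0.067) on its brighter probe set and by 0.18 (SE 0.12) on the other, which was at 0.062 without vehicle rat 3. Slco3a1 and Slco4a1, carriers of prostaglandins and thyroid hormones in many tissues, differed by 0.043 (SE 0.045) and 0.096 (SE 0.070), and by 0.0025 and -0.046 on their other probe sets. Without vehicle rat 3 the first probe set of Slco4a1 was at 0.014. The renal carriers Slc22a2 (Oct2) and Slc22a6 (Oat1) differed by -0.075 (SE 0.062) and 0.090 (SE 0.058). Slc22a25 and Slco1a5 lay at -0.098 (SE 0.069) and -0.065 (SE 0.046). The 16 genes not named had differences on their probe sets between -0.084 and 0.084.

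Treated rats differed from each other more in some transporters than the groups did. D-penicillamine rat 4 lay more than 0.25 below the median of the other 7 treated rats in 15 of the 64 probe sets (11.4% of all probe sets), and more than 0.25 above it in 0 (6.66% of all). In the other treated rats 0 to 4 probe sets lay that far below (0.706 to 5.99% of all) and 0 to 6 that far above (1.35 to 4.04% of all). Rat 4 was the lowest of all 12 rats in 21 of 64 transporter probe sets (32.8%), and in 20.9% of all probe sets on the array. Among probe sets above the median level it was the lowest in 14 of 30 transporters, and in 26.3% of the 7933 such probe sets. The transporters in which it lay farthest below the other treated rats were Slco1a4 by 1.05 and 1.23, Abcc2 by 0.82, Abcc9 by 0.72, Slc22a5 by 0.52, Slco1a1 by 0.51, Slco1b2 by 0.47 and 0.44, Slc22a23 by 0.45 and Abcb11 by 0.39. Slc22a8 (10.60) and Slc22a7 (10.31, the others 10.34 to 10.49) were near the other treated rats.

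**Figure D4:**
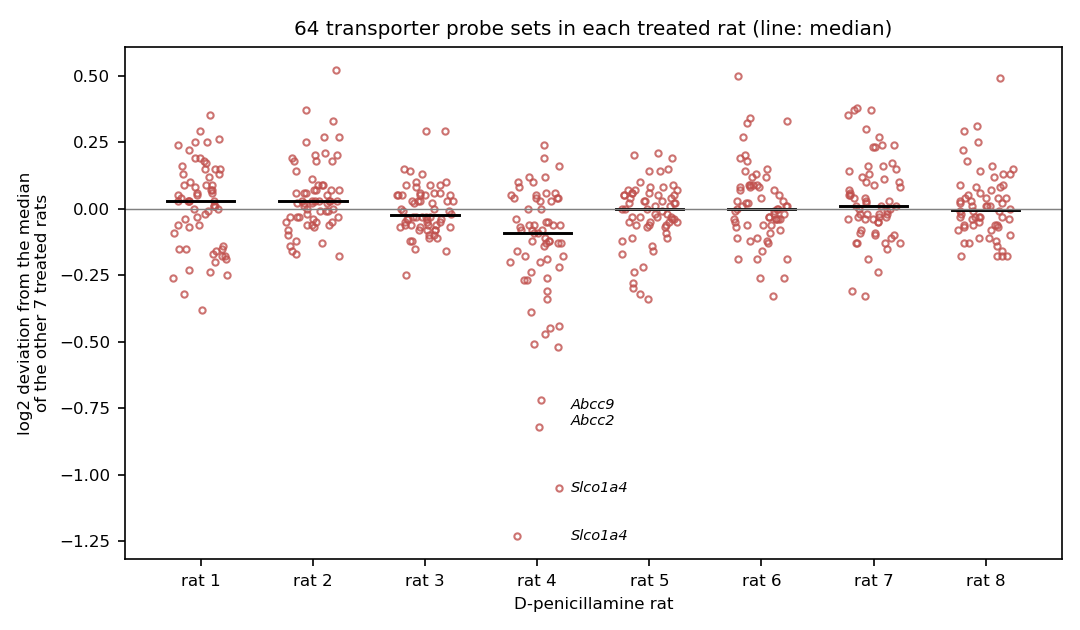
Deviation of each D-penicillamine rat from the median of the other 7 treated rats, on the log2 scale, for the 64 transporter probe sets (points) with their median (line). In rat 4, 15 points lie below -0.25 and the median is -0.09, where the medians of the others are -0.025 to 0.03.

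Other markers also stood apart in rat 4. Slc10a1, the main sodium-dependent bile salt uptake carrier of hepatocytes and outside the symbol rule, had 11.40 in rat 4 and 11.69 to 11.98 in the other treated rats, against 11.63 to 11.75 in vehicle rats. The mean over 5 hepatocyte markers had its lowest value there (13.61). Of these, Ttr (13.79) and Cps1 (12.14) were lowest among treated rats in rat 4, and vehicle rat 3 had a lower Cps1 (12.05). Alb (14.82), Serpina1 (13.84) and Apoa1 (13.46) did not have their lowest treated values in that rat. The 2 measured neutrophil markers had a mean of 4.59 to 5.20 in D-penicillamine rats and 4.54 to 4.72 in vehicle rats, with the highest in rat 4, where S100a9 was at 6.36 and at 5.28 to 5.48 in the other treated rats. The 4 measured lymphocyte markers had their highest mean there too (4.89 to 5.12 in D-penicillamine rats and 4.91 to 4.98 in vehicle rats), with Cd2 at 5.90 and Cd3e at 3.95, its lowest level among treated rats. The endothelial markers were mixed in rat 4. Vwf was at 6.80, the highest of the 12 rats, and Pecam1 at 6.37, the highest among treated rats. Kdr (9.06) and Lyve1 (7.64) had their lowest values of the 12 rats there. The mean of 3 kidney markers was highest in rat 4 as well (5.50 to 5.71 in D-penicillamine rats and 5.44 to 5.63 in vehicle rats). Of these only Umod (6.67) was highest in that rat, and Aqp2 (6.61) and Slc12a1 (3.86) were not. The 2 measured erythroid markers had means of 10.33 to 11.65 in D-penicillamine rats and 10.32 to 11.50 in vehicle rats, and were high in treated rats 4 and 5 and in vehicle rat 1. The part of these in the low transporter signals of rat 4 was not tested.

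The sequences directly upstream of Abcc2 and of the 3 Slco1 carriers that were low in rat 4 are given from RefSeq (GRCr8), to show how far these genes resemble each other there, 250 bases each, ending at the base before the start. Slc22a5, which was also low in that rat, is not shown. They lie at chr4:176495847-176496096 (minus strand) for Slco1a4, chr1:252613625-252613874 (plus) for Abcc2, chr4:176282334-176282583 (plus) for Slco1b2 and chr4:176681993-176682242 (minus) for Slco1a1. Capitals mark AGGTCA, the half-site of many nuclear receptors, GTTAAT, found in sites of HNF1, and TATAAA, each searched on both strands.
Slco1a4: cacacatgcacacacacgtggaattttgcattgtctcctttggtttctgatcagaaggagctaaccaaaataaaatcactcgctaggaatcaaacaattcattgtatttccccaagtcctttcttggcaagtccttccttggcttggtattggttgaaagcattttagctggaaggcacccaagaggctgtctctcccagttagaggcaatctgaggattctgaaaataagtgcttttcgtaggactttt
Abcc2: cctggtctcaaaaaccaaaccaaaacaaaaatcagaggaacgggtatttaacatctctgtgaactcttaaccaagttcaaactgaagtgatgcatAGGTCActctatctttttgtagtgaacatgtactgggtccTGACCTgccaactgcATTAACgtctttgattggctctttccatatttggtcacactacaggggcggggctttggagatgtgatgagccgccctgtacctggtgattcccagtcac
Slco1b2: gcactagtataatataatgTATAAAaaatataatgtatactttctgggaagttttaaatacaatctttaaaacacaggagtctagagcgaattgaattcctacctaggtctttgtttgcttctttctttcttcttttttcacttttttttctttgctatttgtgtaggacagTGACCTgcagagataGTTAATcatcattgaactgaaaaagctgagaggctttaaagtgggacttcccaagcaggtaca
Slco1a1: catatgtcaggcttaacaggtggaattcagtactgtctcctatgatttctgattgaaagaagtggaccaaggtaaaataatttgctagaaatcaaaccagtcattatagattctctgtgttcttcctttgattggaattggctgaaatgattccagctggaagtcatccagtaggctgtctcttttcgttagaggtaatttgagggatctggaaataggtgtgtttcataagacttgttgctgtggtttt

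Slco1a4 and Slco1a1 resembled each other in this window. In a global alignment 176 of 250 bases (70.4%) were identical, where the 20 other pairs among the upstream sequences of 6 Slco1 genes of chromosome 4 and of Abcc2 had 46 to 54%. Neither held any of the 3 motifs. Abcc2 held AGGTCA at -155 and, on the opposite strand, at -115, and GTTAAT on the opposite strand at -100. Slco1b2 held AGGTCA on the opposite strand at -78, GTTAAT at -63 and TATAAA at -231. Of the 42 transporter genes with an upstream sequence in the table, 8 held AGGTCA (14.1% of all 33469), 5 held GTTAAT (6.45%) and 7 held TATAAA (12.9%). A match is a run of letters and says nothing about binding. Likeness upstream of the start does not bear on the transcripts. How far the probe sets of Slco1 paralogs read each other's transcripts was not tested.

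Over all transporters, the SD was larger in D-penicillamine than in vehicle rats for 38 of 64 probe sets (59.4%), and for 66.8% of all probe sets. Without D-penicillamine rat 4 it was again 38 of 64, against 60% of all, and without vehicle rat 3 it was 53 of 64, against 77% of all. The median SD was 0.112 in D-penicillamine rats and 0.080 in vehicle rats, and over all probe sets 0.106 and 0.081. The widest among the treated rats was Slco1a4, with SDs of 0.41 and 0.51 in D-penicillamine rats and 0.17 and 0.21 in vehicle rats. Without rat 4 the other 7 treated rats had SDs of 0.18 and 0.23. Abcc2 had 0.39 in D-penicillamine rats (0.27 without rat 4) and 0.096 in vehicle rats. Abcb11 had 0.21 in D-penicillamine rats (0.16 without rat 4) and 0.083 in vehicle rats. Narrow among bright carriers was Slc22a7 with 0.054 in D-penicillamine rats and 0.064 in vehicle rats.

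The regulators of these genes were read from the same fit. Of 13 measured nuclear receptors and other factors known to regulate transporters, 11 had a higher and 2 a lower estimate after D-penicillamine, and 0 of their 16 probe sets passed the adjusted p in limma. At an unadjusted p under 0.05 stood 5 of 16 probe sets higher (2.68% of all probe sets) and 1 lower (3.48%). Nr0b2, the small heterodimer partner that represses bile acid synthesis, ran from 7.51 over a median of 8.25 to 9.16 in D-penicillamine rats, against 7.09, 7.96, 6.71 and 7.51 in vehicle rats. The groups overlapped, and the difference was 0.99 (SE 0.27, adjusted p = 0.614 in limma). Nr1i2, the pregnane X receptor that senses xenobiotics, ran from 8.04 over 8.26 to 8.50 in D-penicillamine rats, against 7.87, 8.20, 7.81 and 7.97 in vehicle rats. It differed by 0.29 (SE 0.090, adjusted p = 0.693 in limma), with 8 of 8 treated rats above the vehicle mean.

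Vehicle rat 3 carried much of the other regulator values. Rxra, the common partner of these receptors, differed by 0.38 (SE 0.16), and by 0.16 without vehicle rat 3. For Ahr, the dioxin receptor, the values were 0.36 and 0.12, with -0.079 on its other probe set. Hnf4a, a hepatocyte identity factor, was at 0.34 and 0.26 on its probe sets, and at -0.024 and 0.049 without that rat. Without it Nr0b2 was at 0.78 and Nr1i2 at 0.23. Nr1h4, the bile acid receptor that activates Abcb11, differed by -0.029 (SE 0.067). Nr1i3, the constitutive androstane receptor, differed by 0.23 (SE 0.18), and by 0.10 without D-penicillamine rat 7, which was at 9.08. Nr1h3, the oxysterol receptor that activates Abcg5 and Abcg8, differed by -0.21 (SE 0.075, adjusted p = 0.715 in limma). Without vehicle rat 3 Nr1h3 was at -0.15 (unadjusted p = 0.0705 in limma). Nfe2l2 (Nrf2) was at 0.0050 (SE 0.14).

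Scaffolds of the canalicular membrane and the other bile transporters gave no call. The 5 measured scaffold and anchoring genes had 0 of 8 probe sets at an unadjusted p under 0.05. Radixin (Rdx), which holds Abcc2 in the membrane, was at -0.014 (SE 0.096) and -0.12 (SE 0.075), and Pdzk1 at -0.11 (SE 0.072). Of the 5 other bile transporter genes, Slc10a1 differed by 0.088 (SE 0.087), and by 0.15 without D-penicillamine rat 4 (unadjusted p = 0.0218 in limma). Without vehicle rat 3 it was at 0.059 (unadjusted p = 0.555 in limma), and without both rats at 0.12 (unadjusted p = 0.0765). Atp7b, the copper pump that loads copper into bile, differed by -0.083 (SE 0.069) on its brighter probe set and by 0.12 (SE 0.051) on the other. The latter was the 1 probe set of that list under an unadjusted p of 0.05. Without vehicle rat 3, which had the lowest value there (5.89), its difference was 0.089 (unadjusted p = 0.132 in limma).

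Markers of other liver cells are given for the same arrays. Among 6 measured Kupffer cell and macrophage markers, all had higher estimates, with 3 of 6 probe sets at an unadjusted p under 0.05 (2.68% of all probe sets higher) and list means of 8.11 to 8.30 in D-penicillamine rats and 8.00 to 8.23 in vehicle rats. Stellate cell and fibroblast markers had 3 of 9 probe sets lower at that level (3.48% of all), with list means of 5.97 to 6.25 in D-penicillamine rats and 6.04 to 6.26 in vehicle rats. Of 4 cholangiocyte markers 1 was higher at that level, Krt7 by 0.15 (SE 0.063). Without vehicle rat 3, Krt7 and the 3 macrophage probe sets no longer stood at that level. In limma the unadjusted p was then 0.0526 for C1qc, 0.062 for Csf1r, 0.0909 for Tyrobp and 0.0634 for Krt7. The endothelial, lymphocyte, neutrophil, erythroid, kidney and intestine lists had 0 probe sets at that level, and the list means of all these cell types overlapped between the groups. The part of these cells in the transporter values was not tested.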

How the data were processed

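Liver RNA of 8 D-penicillamine and 4 vehicle rats (10 µg per rat) was measured on 12 Affymetrix arrays of 1 chip type, and groups and rat numbers come from the labels. The authors deposited log2 values, made with RMA per the submitters' processing notes, for 15923 probe sets, to 2 decimals. Neither the version of RMA nor any filter is stated in the labels. The deposited scan records, which per the file headers hold 1 chip lot and 1 scan day, gave the order of scanning only.

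The 57 array controls were left out. Gene symbols came from the platform annotation and were updated through gene identifiers to GRCr8, which changed 0 transporter symbols; 12783 probe sets had 1 symbol, 312 several and 2771 none. A probe set of Abcb1a and Abcb1b together was left out by the rule. Groups were compared with limma 3.58.1 in R 4.3.3 (lmFit on group, eBayes, two-sided, 95% intervals), with Benjamini-Hochberg adjustment over all 15866 probe sets and a threshold of 0.05, and the fit was tested on simulated data. Correlations over rats used scipy 1.17.1. The labels name individual rats, so arrays are biological replicates, and their number limits the precision.

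The members and lists were chosen with earlier results of these data known. Named are the members of fixed role lists, the 6 genes per direction with the smallest p, those with groups that do not overlap and the 6 with the largest SD in treated rats. The brightest probe set stands for a gene. Alternatives were a further quantile normalization, median centring, the brighter probe sets only, each rat left out, array weights, a covariate for the 3' minus 5' difference, both outlying rats left out, a trended robust eBayes, other symbols, other probe set rules and a replicate block. Same-numbered rats deviated from their group means with correlations of 0.245, -0.164, 0.14 and -0.129. For treated rats 1 and 3 the same-numbered vehicle rat had the highest correlation, and for 2 and 4 it did not. So few rats cannot settle whether the numbers pair them, and the main fit used no pairing.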

Additional observations from a re-analysis of the deposited data

Results flagged for a closer look

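In 128 groups of transporter values, Dixon's criterion marked 9 in which the lowest or highest rat stood apart, and chance marks about 1 in 20, or 6.4. The named genes hold 8 of the 9. Of these, 4 were low values of D-penicillamine rat 4: 9.97 and 7.85 for Slco1a4 (10.82 to 11.27 and 8.90 to 9.54 in the other treated rats), 6.13 for Slc22a5 (6.60 to 6.72) and 8.68 for Slco1a1 (9.04 to 9.36). Vehicle rat 3 was low at 4.64 for Slc22a23 (5.50 to 5.66 in the other vehicle rats) and at 7.74 for Slco2b1 (8.44 to 8.47), each on the dimmer probe set of the gene. D-penicillamine rat 1 was low for Slco2a1 at 10.45 (10.73 to 10.88), and D-penicillamine rat 7 was high for Abca2 at 7.60 (7.21 to 7.39). Vehicle rat 3 is the rat with the 3' minus 5' difference of 1.185, and its part in these values was not tested.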

How the results depend on the processing

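No transporter probe set passed the adjusted p under any alternative in limma, where the smallest adjusted p of a transporter lay between 0.369 (array weights) and 0.999. The median difference lay between -0.019 and 0 on leaving out each rat. The counts at an unadjusted p under 0.05 rest on 1 probe set each and moved: leaving out each rat gave 0 to 4 higher and 0 to 2 lower. Higher were 0 without D-penicillamine rat 2, 3 or 6 or vehicle rat 1 or 3, 2 without D-penicillamine rat 1 or vehicle rat 4, 3 without vehicle rat 2 and 4 without D-penicillamine rat 4. Lower were 0 without D-penicillamine rat 3, 5, 6 or 8 or vehicle rat 1, and 2 without D-penicillamine rat 1 or 4 or vehicle rat 3. A further quantile normalization gave 2 lower, array weights 3 lower, the brighter probe sets 0 higher and 0 lower, the trended robust fit 0 higher, the 3' minus 5' covariate 0 higher and 2 lower, and leaving out both outlying rats 2 higher and 2 lower. A replicate block on the numbers 1 to 4, without treated rats 5 to 8, gave 0 higher and 2 lower. In the labels the same-numbered rats share only a number. For the regulators, scaffolds and other bile transporters, 7 probe sets stood at that level, 2 to 11 on leaving out each rat (2 without vehicle rat 3, 11 without vehicle rat 2, 4 without D-penicillamine rat 8), 3 with array weights, and 2 with the covariate, the replicate block or without both outlying rats. The SD was larger in treated rats for 37 to 53 of 64 probe sets on leaving out each rat. These recounts for the regulators and for the SD, and the counts of differences moved by vehicle rat 3 or D-penicillamine rat 4, were chosen after seeing the data. Of 36 probe sets of named genes, 13 changed sign in at least 1 alternative, none of them past the threshold. Causes were not tested. RMA values give no background level, so little can be said of the dim members.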

Other observations

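The probe set annotated to Abcb1a and Abcb1b together, P-glycoprotein genes that export drugs into bile, is outside the rule. It ran from 5.43 over a median of 5.54 to 5.82 in D-penicillamine rats, against 5.30, 5.47, 5.04 and 5.59 in vehicle rats. All 8 treated rats lay above the vehicle mean and the groups overlapped. The difference was 0.21 (SE 0.088, adjusted p = 0.772 in limma), and 0.11 without vehicle rat 3, which held the low value.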
